A study of Mus musculus with 10 samples.

Results

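The genes described here are 9 targets of the peroxisome proliferator-activated receptors (PPARs) that handle lipid: Cd36, Lpl, Angptl4, Fabp1, Fabp3, Scd1, Scd2, Plin2 and Gk. They were picked by name out of 54532 annotated genes in the count table, and they were selected on results of the same DMM against PBS comparison that is reported below. Their values are therefore given as a description with no p-value, and where it is counted how many pass a threshold, nothing is read from the count. The study asked how dimethyl malonate (DMM), which is turned into the succinate dehydrogenase inhibitor malonate, alters the kidney after unilateral ureteral obstruction (UUO), a surgical model in which tying the left ureter causes injury and fibrosis. Bulk mRNA was sequenced from obstructed kidneys of wild-type male C57BL/6 mice operated on at 8 weeks of age and examined at day 14. The PBS group (5 kidneys, the controls) received vehicle by intraperitoneal injection every other day, and the DMM group (5 kidneys) received DMM at 40 mg/kg on the same schedule. Each kidney gave 1 library, and both groups were obstructed, so no unobstructed kidney enters any value here.

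PPARs are nuclear receptors that bind fatty acids and related ligands, pair with the retinoid X receptor RXR and switch on genes that carry a PPAR response element, a direct repeat of a short hexamer. PPARα is abundant in the proximal tubule, a nephron segment that draws most of its energy from fatty acid oxidation, while PPARγ is best known from adipocytes and PPARδ is broadly expressed. Their targets cover the path of a fatty acid through a cell: release from lipoproteins, entry, binding in the cytosol, desaturation, storage in droplets and oxidation.

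Counts summed to between 16457495 and 18078777 per PBS library (median 17825223) and between 15722527 and 19475833 per DMM library (median 16794390). Of all genes, 16505 had enough counts to be tested over the 10 libraries. Levels of 1 gene across libraries are given as CPM, counts relative to a library size that is scaled by the trimmed mean of M-values (TMM).

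The labelled tissue was checked against kidney markers, and 3 libraries stood apart. The proximal tubule genes Lrp2 (219 to 2499 CPM) and Kap (586 to 4935 CPM), the loop of Henle gene Umod (999.6 to 3698 CPM) and the injured-tubule genes Havcr1 (499 to 1085 CPM) and Spp1 (11023 to 17899.6 CPM) were present in every library. In the deposited group means, which are counts divided by size factors, PBS 3 and DMM 1 carried a weight of 0, whereas the other 8 libraries did not. DMM 1 had a mean Pearson correlation across genes of 0.952 with the other DMM libraries and 0.984 with the PBS libraries, and its nearest library was PBS 5 (r = 0.989). PBS 3 had a mean correlation of 0.974 with its own group and 0.965 with the DMM group, and its nearest library was DMM 2 (r = 0.982). By correlation PBS 3 did not stand apart: PBS 4 had 0.975 with its own group, and DMM 1 was nearest to PBS 4 and to PBS 5. DMM 2 had a mean of 0.965 with its own group and 0.972 with the PBS group. These correlations run across genes, which are not independent replicates.

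Gene lists summed per library showed how these libraries differed. Interferon response genes summed to 3332, 1928, 2349, 3270.2 and 3088 CPM in PBS 1 to 5 and to 2404, 337, 289, 284 and 243 CPM in DMM 1 to 5. DMM 1 thus lay within the PBS range for this list, and PBS 3 lay with its own group. Proximal tubule genes summed to 3907, 3892, 10355, 1399.6 and 2798 CPM in PBS 1 to 5 and to 2903, 8165, 6921, 5781 and 10183 CPM in DMM 1 to 5. For this sum PBS 3 exceeded every DMM library, and DMM 1 lay among the other PBS libraries. Kap alone gave 4935 CPM of the PBS 3 sum, and not every gene of the list was highest there. Slc34a1 was highest in PBS 3 at 1467 CPM, whereas Lrp2 stood at 1141 CPM in PBS 3 and at 1188, 2499 and 1275 CPM in DMM 3 to 5. Whether either library carries the wrong label was not tested, so fold changes and counts of calls are given over all 10 libraries and over the 8 without PBS 3 and DMM 1. Levels in FPKM and correlations between genes are given over the 10 alone. For genes that run with the proximal tubule list, leaving out these libraries widens the gap between the groups. Why the deposited means give them no weight is not given in the sources used here, and the set of 8 was taken up with results known, so values and p-values over the 8 libraries describe those libraries and are no independent support.

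**Figure D1:**
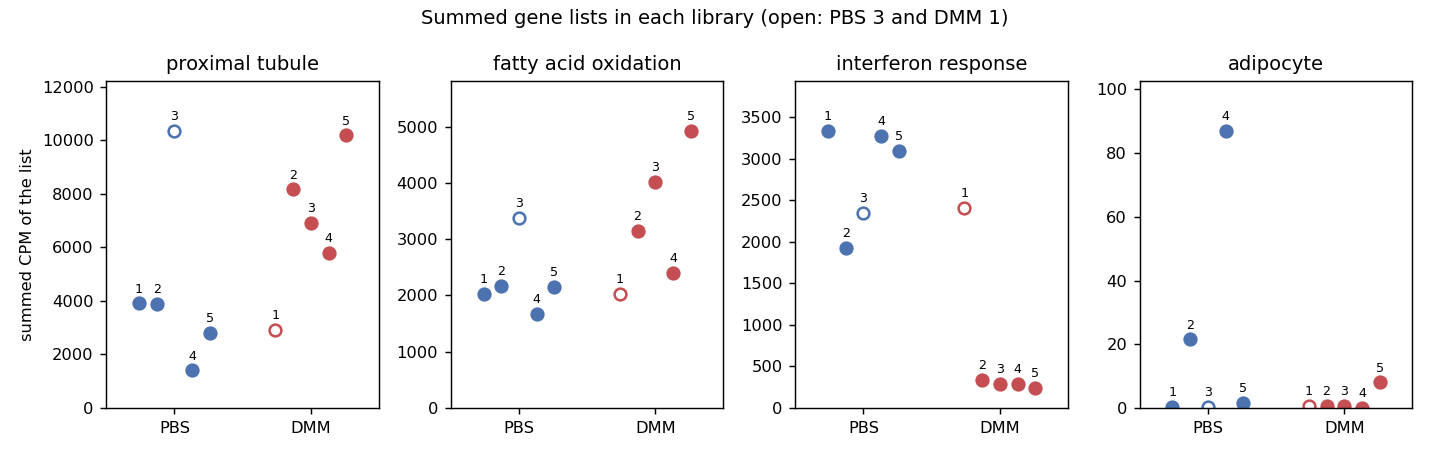
Summed TMM-scaled CPM (y axis, linear from 0) of 4 gene lists in each PBS and DMM library, numbered by replicate, with PBS 3 and DMM 1 drawn open. PBS 3 sits high in the proximal tubule list at 10355 CPM, and DMM 1 sits with the PBS libraries in the interferon list at 2404 CPM.

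DMM 4 was the other library set apart. Its TMM factor was 0.852, against 0.981 to 1.05 in the other 9 libraries, and its mean correlation with the other DMM libraries was 0.916. Relative to the rest of its group, its median log2 level was -0.52 for genes up to 1 kb long, -0.73 for genes of 1 to 2 kb, -0.35 for genes of 2 to 4 kb, 0.14 for genes of 4 to 8 kb and 0.65 for genes longer than 8 kb. The same medians lay between -0.20 and 0.26 in the other DMM libraries and between -0.03 and 0.02 in the PBS libraries. Values without DMM 4 are given below for Lpl, Angptl4, Fabp3 and the pathway lists.

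**Figure D2:**
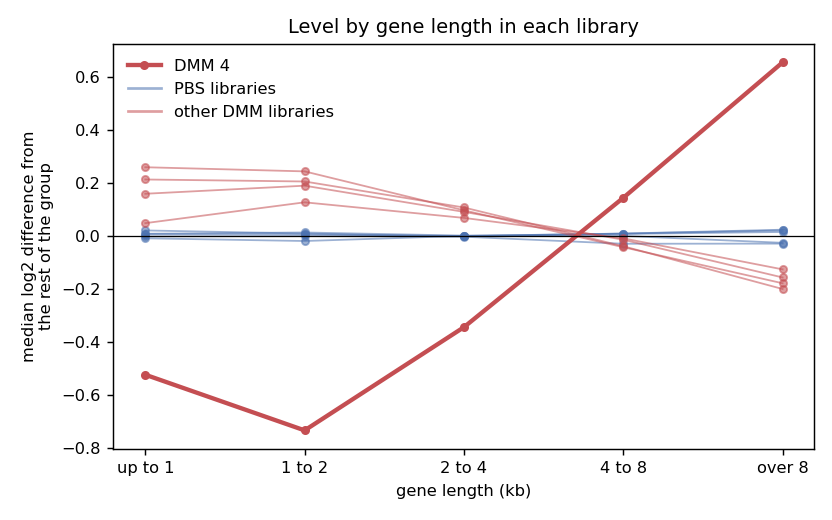
Median log2 difference of each library from the other libraries of its group (y axis) in 5 classes of gene length in kb (x axis), with a line per library. DMM 4, the thick line, runs from -0.52 in the shortest genes to 0.65 in the longest.

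Across all genes, the comparison of DMM with PBS depended on which libraries entered. Over the 10 libraries 0 of 16505 genes passed in either direction (0%) in edgeR's quasi-likelihood F test, where passing meant a fold change above 1.5 together with a p under 0.05 after Benjamini-Hochberg adjustment, and the smallest adjusted p was 0.378. At an unadjusted p under 0.05 with the same fold change, 315 genes (1.91%) were higher in DMM and 678 (4.11%) were lower, and DESeq2 passed 14 and 36 genes at its adjusted p. Over the 8 libraries 452 of 16550 genes (2.73%) passed as higher and 590 (3.56%) as lower by the adjusted rule, and 1067 (6.45%) and 1198 (7.24%) passed the unadjusted one. Leaving out DMM 1 alone from the 10 gave 50 genes higher and 436 lower. Leaving out DMM 4 from the 8 gave 1129 of 16828 genes higher (6.71%) and 1281 lower (7.61%). Scaling to library size in place of TMM moved the 8-library split from 452 and 590 to 276 and 700, so that 28.3% rather than 43.4% of calls were higher, and the median log2 fold change of all genes from 0.02 to -0.09.

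Of the 9 lipid-handling genes, 8 had enough counts to be tested over either set of libraries, and their lowest count in any library was 49. Fabp1 did not pass the filter. Over the 10 libraries 0 of the 8 passed the adjusted rule in either direction, against 0% of all genes, and 1 (Scd1) passed the unadjusted rule as higher, against 1.91%. Over the 8 libraries 3 (Gk, Scd1 and Cd36) passed the adjusted rule as higher, against 2.73%, and the same 3 passed the unadjusted rule, against 6.45%. Without DMM 4 Fabp3 passed the adjusted rule as well, against 6.71% of all genes, and over the 6 libraries PBS 2, 4 and 5 and DMM 2, 4 and 5 only Gk did, against 0.0965%. None passed as lower by either rule, against 3.56% and 7.24%. None had groups that did not overlap over the 10 libraries, against 0.794% of genes higher and 1.16% lower, and 3 lay wholly higher in DMM over the 8, against 9.46% higher and 10.6% lower. The median log2 fold change of the 8 genes was 0.43 over the 10 libraries and 0.78 over the 8, beside 0.02 over all genes in both. Because the genes were chosen with this comparison known, these shares are a description.

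**Figure D3:**
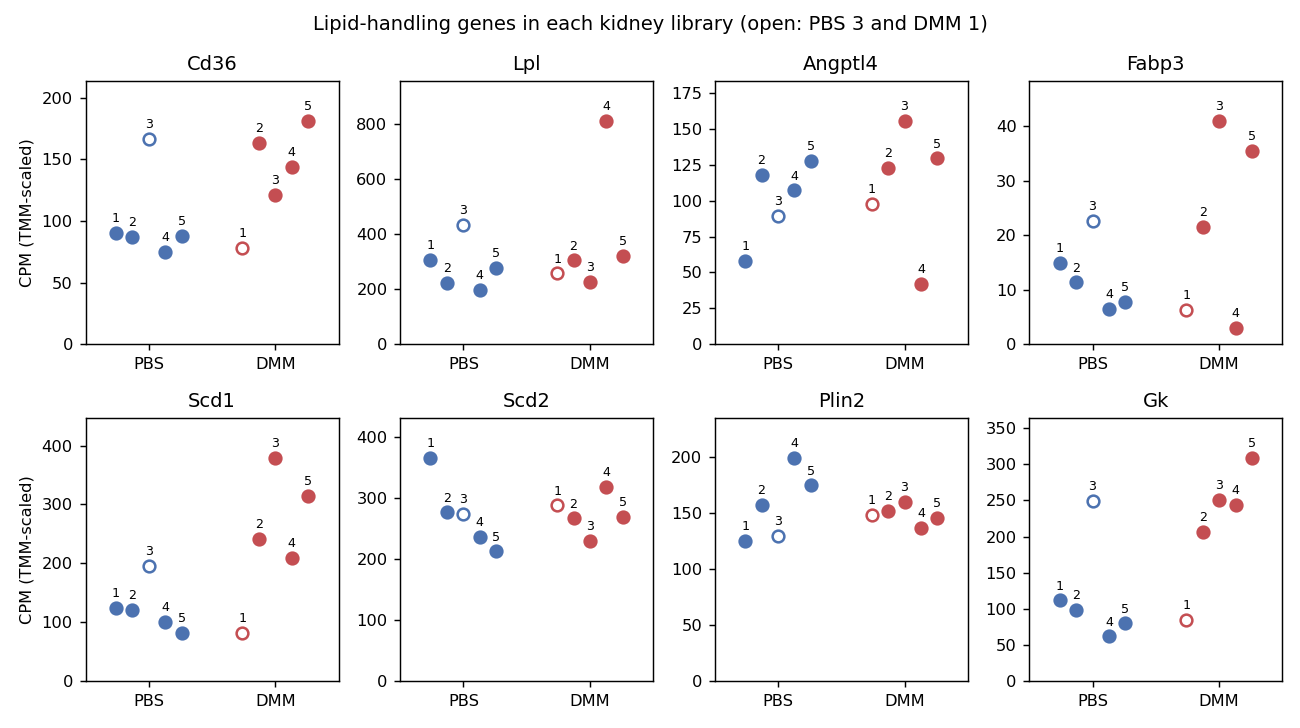
TMM-scaled CPM (y axis, linear from 0) of 8 genes in each of the 5 PBS and 5 DMM libraries, numbered by replicate, with PBS 3 and DMM 1 drawn open. For Gk, Scd1 and Cd36 the 5 highest libraries are PBS 3 and DMM 2 to 5, and DMM 4 stands alone for Lpl at 809 CPM.

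Entry of fatty acids was represented by Cd36 (ENSMUSG00000002944, chr5:17781690-17888801, minus strand, mm10), a membrane receptor that takes up long-chain fatty acids and oxidised lipoproteins. It stood at 90.6, 86.9, 167, 75.1 and 87.7 CPM in PBS 1 to 5 and at 78.2, 164, 121, 144 and 181 CPM in DMM 1 to 5. The groups overlapped through PBS 3, which was higher than 4 of the DMM libraries, and DMM 1, which was lower than 4 of the PBS libraries. The log2 fold change of DMM over PBS was 0.44 (SE 0.26, n = 5 and 5) over the 10 libraries. Over the 8 it was 0.84 (SE 0.14, n = 4 and 4), with means of 85.1 ± 6.81 CPM (SD) in PBS and 152 ± 25.8 CPM in DMM. In whole tissue, fewer cells of a type and less RNA per cell cannot be told apart, and this holds for every gene below.

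Lpl (ENSMUSG00000015568, chr8:68880491-68907448, plus strand) encodes lipoprotein lipase, which frees fatty acids from triglyceride in circulating lipoproteins. Its level was 305, 224, 434, 198 and 275 CPM in PBS 1 to 5 and 257, 304, 226, 809 and 320.4 CPM in DMM 1 to 5. DMM 4 was far above all others, PBS 3 was second, and the other 8 libraries of both groups lay between 198 and 320.4 CPM. DMM over PBS gave a log2 fold change of 0.42 (SE 0.35) over the 10 libraries and 0.72 (SE 0.37) over the 8. Without DMM 4 these became -0.05 and 0.18. The Lpl transcript model is 10478 bp long, within the length class in which DMM 4 was high, and the part of that pattern in its value was not tested.

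Angptl4 (ENSMUSG00000002289, chr17:33773750-33781575, minus strand) encodes a secreted inhibitor of lipoprotein lipase and is a classical PPAR target. Its level was 57.9, 118, 89.4, 107 and 128 CPM in PBS 1 to 5 and 97.8, 123, 156, 42.3 and 129.6 CPM in DMM 1 to 5. DMM 4 had the lowest value and DMM 3 the highest, so the DMM group spanned the whole PBS range. The log2 fold change was 0.13 over the 10 libraries (SE 0.31) and 0.13 over the 8 (SE 0.38), and without DMM 4 it was 0.34 and 0.41. Its sign turned when other single libraries were left out, to -0.03 and -0.06 without DMM 3 and to -0.01 and -0.06 without PBS 1, and it was -0.26 over PBS 2, 4 and 5 and DMM 2, 4 and 5. In DMM 4 Angptl4 was at its lowest and Lpl at its highest. The Angptl4 model is 3286 bp long, in a class where the DMM 4 median was -0.35, against 0.65 in the class of Lpl, and the part of gene length in this contrast was not tested.

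Binding of fatty acids in the cytosol was represented by Fabp1, the liver-type protein, and Fabp3, the heart-type protein. Fabp1 (ENSMUSG00000054422) had 1, 0, 0, 0 and 0 counts in PBS 1 to 5 and 0, 3, 4, 0 and 5 counts in DMM 1 to 5. With 0 counts in 6 of 10 libraries, where a count of 0 allows up to 3, no fold change is given. Human proximal tubule makes this protein, whereas the mouse gene is known to be nearly silent there.

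Fabp3 (ENSMUSG00000028773, chr4:130308595-130315463, plus strand) stood at 15.0, 11.3, 22.6, 6.43 and 7.81 CPM in PBS 1 to 5 and at 6.29, 21.5, 40.9, 2.95 and 35.4 CPM in DMM 1 to 5. DMM 3 and DMM 5 lay above every PBS library, DMM 2 lay just under PBS 3, and DMM 1 and DMM 4 lay below every PBS library. The log2 fold change was 0.76 (SE 0.62) over the 10 libraries and 1.31 (SE 0.63) over the 8. Without DMM 4 it was 1.05 and 1.69, without DMM 3 it was 0.39 and 0.98, and without DMM 5 it was 0.51 and 1.11. The Fabp3 transcript model is 823 bp long, within the shortest class, in which DMM 4 was low, and the part of that pattern was not tested. Fabp3 overlaps Zcchc17 on the opposite strand (345 to 495 counts per library), and reads from the shared stretch cannot be told apart without a known strand setting.

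Desaturation was represented by Scd1 (ENSMUSG00000037071, chr19:44394451-44407709, minus strand) and Scd2 (ENSMUSG00000025203, chr19:44293676-44306864, plus strand), genes for stearoyl-CoA desaturases, which turn saturated into monounsaturated fatty acids. Both genes lie close together, with Scd4 between them. Scd1 stood at 125, 121, 196, 99.7 and 82.0 CPM in PBS 1 to 5 and at 81.8, 241, 379, 209 and 314 CPM in DMM 1 to 5. DMM 2 to 5 lay above every PBS library, PBS 3 included, and only DMM 1 made the groups overlap. The log2 fold change was 0.98 (SE 0.36) over the 10 libraries, with means of 125 ± 43.3 CPM in PBS and 245 ± 113 CPM in DMM. It was 1.42 (SE 0.22) over the 8 libraries, with 107 ± 19.8 CPM in PBS and 286 ± 76.4 CPM in DMM.

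Scd2 did not share this pattern. It ranged from 212 to 366 CPM in PBS and from 229 to 318 CPM in DMM, so every DMM library lay within the PBS range. Its log2 fold change was 0.01 (SE 0.15) over the 10 libraries and -0.01 (SE 0.19) over the 8, and with library size alone as the scaling it was -0.08 and -0.14. With any 1 library left out it lay between -0.06 and 0.13 over the 10 and between -0.12 and 0.16 over the 8, on either side of 0. The difference in response between Scd1 and Scd2 was not tested. The paralogs Scd3 (0 to 8 counts) and Scd4 (0 to 10 counts) were too low to test, and how the counting divided reads among these related genes is not given in the sources used here.

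Storage in droplets was represented by Plin2 (ENSMUSG00000028494, chr4:86648386-86670060, minus strand), which encodes the perilipin that coats lipid droplets in most cells other than adipocytes. Its level was 125, 157, 129.6, 199.5 and 175 CPM in PBS 1 to 5 and 149, 152, 160.1, 137 and 146 CPM in DMM 1 to 5. The DMM libraries lay inside the PBS range and closer together, with an SD of 8.48 CPM against 31.2 CPM. On the log2 scale DMM differed from PBS by -0.08 (SE 0.14) over the 10 libraries and -0.14 (SE 0.15) over the 8, and by 0.02 and -0.04 without PBS 4.

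Glycerol use was represented by Gk (ENSMUSG00000025059, chrX:85701937-85776819, minus strand), whose kinase phosphorylates glycerol and so feeds it to triglyceride synthesis and gluconeogenesis. Gk stood at 111, 97.9, 249, 61.6 and 79.7 CPM in PBS 1 to 5 and at 84.3, 206, 250.4, 244 and 309 CPM in DMM 1 to 5. PBS 3 had more than double the level of any other PBS library and lay among DMM 2 to 5, while DMM 1 lay among the other PBS libraries. The log2 fold change was 0.87 (SE 0.41) over the 10 libraries, with 120 ± 74.6 CPM in PBS and 219 ± 83.7 CPM in DMM. It was 1.53 (SE 0.20) over the 8 libraries, with 87.6 ± 21.7 CPM in PBS and 252 ± 42.4 CPM in DMM. The paralog Gk2 had 0 counts in every library, and Gk5 had 324 to 708 counts with log2 values of -0.01 (SE 0.19) for the 10 libraries and 0.12 (SE 0.21) for the 8.

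**Figure D4:**
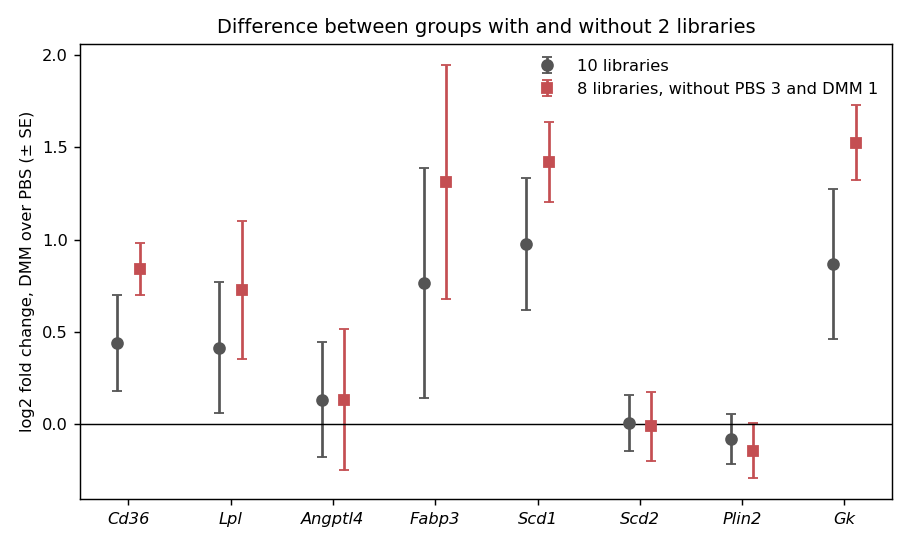
Log2 fold change of DMM over PBS (y axis) of 8 genes over 10 libraries (circles) and over the 8 without PBS 3 and DMM 1 (squares), with bars of 1 SE on either side. Gk moves from 0.87 to 1.53 and Scd1 from 0.98 to 1.42, while Scd2, Plin2 and Angptl4 stay within 1 SE of 0 in both sets.

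Levels of different genes were ordered in the deposited FPKM, which divide by transcript length. The most abundant gene of each cell type list below was also found in FPKM. The PBS median was 49.8 FPKM for Scd2, 44.4 for Plin2, 32.5 for Angptl4, 26.2 for Lpl, 24.8 for Scd1, 24.4 for Cd36, 13.7 for Fabp3, 12.5 for Gk and 0 for Fabp1. In DMM the median was 49.6 FPKM for Scd1, 49.1 for Scd2, 42.3 for Plin2, 39.7 for Cd36, 37.2 for Angptl4, 31.2 for Gk, 28.8 for Lpl, 26.0 for Fabp3 and 0.340 for Fabp1. Scd1 thus stood in the middle of the order in PBS and at its top in DMM, and Gk stood above Lpl in DMM alone. Over both groups many of these genes overlapped: Scd2 ranged from 38.8 to 66.5 FPKM, Plin2 from 35.3 to 56.6 FPKM and Scd1 from 16.9 to 78.2 FPKM. Fabp1 reached at most 0.547 FPKM and was the 1 gene whose range lay below all the others, the lowest of which was 3.56 FPKM for Fabp3 in DMM 4.

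For each gene, those with the most similar log2 CPM over the 10 libraries were found by Pearson correlation, as a description over libraries that fall into unlike sets. Gk was most like Hlf (r = 0.992), a circadian transcription factor, and Aqp11 (r = 0.992), an intracellular aquaporin. Cd36 was most like Tcaim (0.983) and Crot (0.980), the peroxisomal carnitine octanoyltransferase, and Scd1 was most like Mthfd1 (0.970), an enzyme of folate metabolism, and Lrtm2 (0.969). Hlf stood at 15.5, 14.9, 33.6, 9.45 and 9.93 CPM in PBS 1 to 5 and at 11.8, 24.0, 32.0, 31.8 and 38.9 CPM in DMM 1 to 5, again with PBS 3 high and DMM 1 low.

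Lpl, Fabp3 and Angptl4, each at its highest or lowest in DMM 4, had other neighbours. Lpl was most like Zfp942 (r = 0.988) and Acvr2a (0.974), both highest in DMM 4 at 27.5 and 59.0 CPM. Fabp3 was most like Slc6a4 (0.989), the serotonin transporter, and Pdzk1ip1 (0.984), both lowest in DMM 4 at 0.422 and 98.3 CPM. Angptl4 was most like Kctd17 (0.955) and Maff (0.949), also lowest in DMM 4 at 60.1 and 17.1 CPM. Scd2 was most like Edaradd (0.917) and Slc16a8 (0.878), and Plin2 was most like Lxn (0.928) and Gja5 (0.907).

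The receptors that act on these genes were examined next. Over the 8 libraries 2.73% of all genes passed the adjusted rule as higher and 3.56% as lower. Counts in this and each list below stand beside these shares. Of 8 tested genes for PPARs, RXRs and their coactivators, 0 passed the adjusted rule over the 10 libraries and 2 passed it as higher over the 8, with a median log2 fold change of 0.20 and 0.33. Ppara stood at 11.2, 13.6, 30.7, 8.23 and 19.8 CPM in PBS 1 to 5 and at 13.6, 30.5, 56.7, 38.8 and 48.7 CPM in DMM 1 to 5. By edgeR's quasi-likelihood F test with Benjamini-Hochberg adjustment it did not pass over the 10 libraries (log2 fold change 1.17, SE 0.41, adjusted p = 0.387), where PBS 3 and DMM 1 lay within the range of the other group, and it passed as higher over the 8, which leave out these libraries (1.73, SE 0.29, adjusted p = 0.0109). Ppargc1a, the coactivator of mitochondrial biogenesis, passed as higher over the 8 libraries with a log2 fold change of 1.09 (SE 0.27, adjusted p = 0.0450 by the same edgeR test with Benjamini-Hochberg adjustment) and had 0.77 (SE 0.30, adjusted p = 0.409) over the 10. For Ppard the log2 values were -0.06 over the 10 libraries and -0.16 over the 8, and for Pparg -0.39 and -0.43, with neither past the test. Pparg stood at 6.51 to 9.98 CPM in PBS and 3.80 to 7.53 CPM in DMM. Ppargc1a stood at 134 CPM in DMM 4 and at 58.0, 73.2 and 70.3 CPM in DMM 2, 3 and 5. Without DMM 4, 2 of 8 receptor and coactivator genes (Ppara and Ppargc1a) passed as higher over the rest of the 8 libraries, against 6.71% of all genes.

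Other genes of fatty acid entry and activation had 1 of 14 tested pass as higher over the 8 libraries and 0 over the 10, with medians of 0.23 and 0.18. Acsl1, which couples fatty acids to CoA, passed over the 8 libraries at 0.91 on the log2 scale (SE 0.20, adjusted p = 0.0292 by edgeR's quasi-likelihood F test with Benjamini-Hochberg adjustment) and had 0.62 (SE 0.25, adjusted p = 0.420 by the same test) over the 10. The transporter Slc27a2 had 1.28 (SE 0.37) and the lipoprotein receptor Vldlr 0.64 (SE 0.22) over the 8, and 0.73 and 0.45 over the 10, without passing. Among paralogs of the binding proteins, Fabp2 had 0 to 2 counts, Fabp4 had log2 fold changes of 0.15 and 0.19 over the 10 and the 8 libraries, and Fabp5 had -0.64 and -0.82, none past the adjusted rule. Without DMM 4, 3 of the 14 passed as higher over the rest of the 8 libraries (Acsl1, Slc27a2 and Dbi), against 6.71% of all genes.

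Of 15 tested genes of lipoproteins and lipolysis, 1 passed as lower over the 8 libraries and 0 passed over the 10, with medians of 0.16 and 0.11. This was Pltp, the phospholipid transfer protein, which stood at 123, 109, 104, 99.5 and 117 CPM in PBS 1 to 5 and at 96.5, 64.3, 34.6, 21.6 and 48.4 CPM in DMM 1 to 5. Every DMM library lay below every PBS library, PBS 3 and DMM 1 included, as was the case for 1.16% of all genes. The groups came closest at DMM 1 (96.5 CPM) and PBS 4 (99.5 CPM). The log2 fold change of Pltp was -1.41 (SE 0.29, adjusted p = 0.0233 by edgeR's quasi-likelihood F test with Benjamini-Hochberg adjustment) over the 8 libraries and -1.06 (SE 0.32, adjusted p = 0.378 by the same test) over the 10. Apoa2 (5 to 32 counts), a lipoprotein component, had 1.19 (SE 0.40) over the 8 and 0.89 over the 10, not past the adjusted rule. Without DMM 4, 3 of the 15 passed as higher (Apoa2 and Apoc3 among them), against 6.71% of all genes, and 1, Pltp, as lower, against 7.61%. Apoa5 and Apoc2 had 0 counts in every library.

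Droplet and triglyceride synthesis genes had 4 of 16 tested pass as higher over the 8 libraries (Fitm2, Dgat2, Lpin1 and Mogat1) and 0 over the 10, with medians of 0.33 and 0.20. By edgeR's quasi-likelihood F test with Benjamini-Hochberg adjustment over the 8 libraries, Dgat2, which makes triglyceride from diacylglycerol, had a log2 difference of 1.01 (SE 0.18, adjusted p = 0.0139), the droplet-budding gene Fitm2 had 0.64 (SE 0.11, adjusted p = 0.0112) and the acyltransferase Mogat1 had 1.34 (SE 0.29, adjusted p = 0.0282). Over the 10 they had 0.59, 0.42 and 0.70. Desaturation and synthesis genes had 1 of 13 pass as higher over the 8 libraries, Me1, an NADPH source, with 0.82 (SE 0.15, adjusted p = 0.0148 by the same edgeR test with Benjamini-Hochberg adjustment), and 0 over the 10, where Me1 had 0.42 (SE 0.26). Mlxipl, a carbohydrate-sensing regulator of lipid synthesis, had 0.59 (SE 0.23) over the 8 and 0.41 over the 10 without passing. The medians of this list were 0.22 and 0.18. Without DMM 4, 6 of 17 droplet genes and 2 of 13 desaturation genes (Me1 and Mlxipl) passed as higher, while the share of all genes went from 2.73% to 6.71%.

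Ketone body genes had 1 of 7 tested pass as higher over the 8 libraries and 0 over the 10, with medians of 0.80 and 0.38. Oxct1, which activates ketone bodies for oxidation, passed over the 8 libraries at 0.97 on the log2 scale (SE 0.16, adjusted p = 0.0107 by edgeR's quasi-likelihood F test with Benjamini-Hochberg adjustment) and had 0.51 (SE 0.29) over the 10. Bdh1, which interconverts the ketone bodies, had 0.97 (SE 0.35) over the 8 and 0.45 over the 10 without passing. Without DMM 4, 6 of the 7 passed as higher over the rest of the 8 libraries, Bdh1 included, while the share of all genes that passed as higher went from 2.73% to 6.71%. Beside Gk, the glycerol genes had 1 of 8 tested pass as higher over the 8 libraries and 0 over the 10, with medians of 0.52 and 0.29. This was Pck1, which makes phosphoenolpyruvate for gluconeogenesis, with 2.11 (SE 0.54, adjusted p = 0.0495 by the same edgeR test with Benjamini-Hochberg adjustment) over the 8 and 1.19 (SE 0.64) over the 10. Gpd1 had 0.90 and 0.41 and the glycerol channel Aqp3 had 0.85 and 0.52 over the 8 and the 10, without passing. Without DMM 4, 4 of 8 glycerol genes passed as higher (Pck1, Gpd1, Aqp3 and Aqp7), against 6.71% of all genes, and 1, Aqp9, as lower, against 7.61%.

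Fatty acid oxidation targets had 7 of 25 tested pass as higher over the 8 libraries (among them Cpt2, Cyp4a10, Cyp4a14, Acot2, Crat and Crot), against 2.73% of all genes, and 0 over the 10, with medians of 0.82 and 0.47. By edgeR's quasi-likelihood F test with Benjamini-Hochberg adjustment over the 8 libraries, Crot had 0.99 (SE 0.17, adjusted p = 0.0112), Crat, the carnitine acetyltransferase, had 0.71 (SE 0.14, adjusted p = 0.0178) and the thioesterase Acot2 had 0.82 (SE 0.16, adjusted p = 0.0200). Over the 10 they had 0.55, 0.47 and 0.65. Cpt1a, which commits fatty acids to mitochondrial entry, had 0.54 (SE 0.12, adjusted p = 0.0317 by the same test with Benjamini-Hochberg adjustment) over the 8, under the fold change of 1.5, and 0.37 over the 10. Pdk4, which restrains glucose oxidation, had 0.996 (SE 0.34) over the 8 and 0.77 over the 10 without passing. With DESeq2, which also tested more genes, this count was 12 of 28 over the 8 libraries, where 749 of 30191 genes passed as higher. The edgeR count changed with most single libraries left out, which also makes a group smaller, and the cause was not tested. It was 18 of 25 without DMM 4, Pdk4 included, where 6.71% of all genes passed as higher. The count was 1 of 25, Crot, without DMM 3, DMM 5, PBS 1 or PBS 4. It was 2 without PBS 2 (Crat and Crot) or PBS 5 (Acot2 and Crot), and 7 without DMM 2. The share of all genes that passed as higher was 2.23% without DMM 2, 1.1% without DMM 3, 0.995% without DMM 5, 1.34% without PBS 1, 1.17% without PBS 2, 0.952% without PBS 4 and 0.774% without PBS 5. Cyp4a10 and Cyp4a14 are close paralogs whose reads the counting may have shared.

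Of 106 pathway genes tested over the 8 libraries, 17 (16.04%) passed the adjusted rule as higher, against 2.73% of all genes, and 1 (0.943%) as lower, against 3.56%. Without DMM 4 these were 44 of 107 (41.1%) and 2 (1.87%), against 6.71% and 7.61%. The lists were written with earlier results of these data known, so the shares are a description. The same 18 genes passed with RLE size factors, with DESeq2 and with the higher CPM filter. DESeq2 tested more pathway genes and passed others too, in all 25 of 120 as higher and 1 as lower. Of all 30191 genes it tested, 749 passed as higher and 911 as lower. Of the 18, 13 passed with library size alone, without Acsl1, Cpt2, Fitm2, Lpin1 and Pck1. With no filter 16 of the 18 passed, without Cpt2 and Lpin1, and Ehhadh passed as well. Leaving out single libraries left, of these 18, 14 without DMM 2, 6 without DMM 3, 18 without DMM 4, 7 without PBS 2, and 5 without DMM 5, PBS 1, PBS 4 or PBS 5. Ppara, Oxct1, Crot and Fitm2 passed in each of these 8 runs. Over the 6 libraries PBS 2, 4 and 5 and DMM 2, 4 and 5, 0 of the 18 passed.

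Markers of the cells that could carry these genes moved across the same libraries. Of 15 proximal tubule genes, 6 passed as higher over the 8 libraries by the adjusted rule, against 2.73% of all genes, and 0 over the 10. Their median log2 fold changes were 1.68 over the 8 and 0.76 over the 10. None of the 15 was at 0 and Kap was the most abundant. The 5 libraries with the highest proximal tubule sums were the 5 with the highest Gk: PBS 3 and DMM 2 to 5. The part of tubule content in Gk, Scd1, Cd36 and the oxidation genes was not tested. Of 12 tested loop, distal tubule and collecting duct genes, 5 passed as higher over the 8 libraries, against 2.73% of all genes, and 0 over the 10. Their sums ran from 2029.8 to 4821 CPM in PBS and from 2280.4 to 5651 CPM in DMM, with Umod the most abundant.

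Adipocytes express Lpl, Cd36 and Fabp4 strongly, so their markers were set beside these genes. The adipocyte list summed to 0.370, 21.5, 0.337, 87.0 and 1.53 CPM in PBS 1 to 5 and to 0.616, 0.503, 0.679, 0 and 8.01 CPM in DMM 1 to 5, with Cfd the most abundant gene. PBS 4 had the most, followed by PBS 2 and DMM 5, and the other 7 libraries were at 1.53 CPM or less. Adipoq reached 12.2 CPM in PBS 4, 2.06 CPM in PBS 2 and at most 1.09 CPM elsewhere. Fabp4 stood at 25.0, 44.3, 38.5, 77.2 and 31.1 CPM in PBS 1 to 5 and at 36.4, 45.9, 54.9, 36.3 and 65.8 CPM in DMM 1 to 5, highest in PBS 4 and then in DMM 5. PBS 4 also had the highest Plin2 and the lowest Lpl and Cd36 of the 10 libraries, and in DMM 4, where Lpl was highest, the adipocyte sum was 0. The part of adipocytes in the level of any of these genes was not tested.

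Macrophages also express Cd36 and Lpl, and endothelium expresses Cd36. Macrophage genes summed to 2385, 2444, 1891, 2176 and 2584 CPM in PBS 1 to 5 and to 2254, 1604, 1270.1, 1050.3 and 1299.6 CPM in DMM 1 to 5, with Lyz2 the most abundant and none at 0. By the adjusted rule 2 of 12 tested genes were lower over the 8 libraries, against 3.56% of all genes, and 0 over the 10. Over the 8 libraries 11 of the 12 genes had a negative log2 fold change and 1 a positive one. In DMM 4 Mrc1 stood at 202 CPM, its highest in any library, and Itgam at 25.9 CPM, its highest in the DMM group. The macrophage sum ran lower in DMM 2 to 5, where Cd36 ran higher, and was lowest in DMM 4, the library set apart by gene length. The part of that pattern in this and the other cell type sums was not tested, and these lists are not given without DMM 4. Endothelial genes summed to 953 to 1312 CPM in PBS and 1019 to 1214 CPM in DMM, with 0 of 10 past the adjusted rule over either set and Plvap the most abundant. Fibroblast genes summed to 6444 to 16578 CPM in PBS and 4421 to 13394 CPM in DMM, with Col1a1 the most abundant. Of these genes 3 of 10 were lower over the 8 libraries, against 3.56% of all genes, and 0 over the 10. T cell genes summed to 50.7 to 84.3 CPM in PBS and 18.4 to 53.3 CPM in DMM, with Cd4 the most abundant. Of these genes 2 of 8 were lower over the 8 libraries, against 3.56% of all genes, and 0 over the 10. Injured-tubule genes summed to 15086 to 21500.0 CPM in PBS and 18557 to 23337 CPM in DMM, with 0 of 7 past the adjusted rule. Spp1 was the most abundant and made up most of this sum. Over the 8 libraries 3 of the 7 genes had a positive log2 fold change and 4 a negative one, with a median of -0.005. Over the 10 these were 5 and 2, with a median of 0.15. The part of these cell types in the lipid-handling genes was not tested.

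PPAR targets are defined by a DNA element, so the promoters were searched for it. RefSeq promoter windows (GRCm38.p6) were found for 5 of the 9 genes: Gk, Cd36, Plin2, Fabp1 and Fabp3. The 250 bases before the start that RefSeq gives were searched on both strands for the half-site AGGTCA and for the direct repeat AGGTCANAGGTCA with up to 2 mismatches, which can overlap the half-site. Among 32851 such windows of all genes, 14.02% held the half-site, 3.24% the repeat with up to 2 mismatches and 0.0335% the exact repeat. Of the 5 windows, 3 held the half-site and the same 3 (Fabp1, Plin2 and Cd36) the repeat with mismatches, while Gk and Fabp3 held neither. The repeat in Fabp1 had 1 mismatch and lay from -67 to -55, counted from the start, and those in Cd36 (-63 to -51) and Plin2 (-225 to -213) had 2 mismatches each. The Cd36 window lies inside the annotated gene, whose outermost 5′ end is at 17888801, and so belongs to an internal start; other starts of Cd36 were not searched. For Fabp1 and Fabp3 the RefSeq start lies downstream of the annotated gene start. A match in these letters is a description and not a binding site. The bases outside annotated exons are shown for Gk and Cd36, whose levels ran together, for Fabp1, which had the closest match and almost no counts, and for Plin2, which had a match and overlapping groups. They read 5′ to 3′ on the strand of the gene, with matches to either motif in capitals, at chrX:85776820-85777069 (minus) for Gk, chr5:17835897-17836146 (minus) for Cd36, chr6:71199629-71199826 (plus) for Fabp1 and chr4:86670061-86670309 (minus) for Plin2.
Gk: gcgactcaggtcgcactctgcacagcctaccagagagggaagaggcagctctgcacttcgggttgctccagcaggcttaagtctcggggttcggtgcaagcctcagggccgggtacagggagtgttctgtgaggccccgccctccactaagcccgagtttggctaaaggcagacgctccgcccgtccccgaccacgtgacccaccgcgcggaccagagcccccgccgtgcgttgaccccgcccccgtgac
Cd36: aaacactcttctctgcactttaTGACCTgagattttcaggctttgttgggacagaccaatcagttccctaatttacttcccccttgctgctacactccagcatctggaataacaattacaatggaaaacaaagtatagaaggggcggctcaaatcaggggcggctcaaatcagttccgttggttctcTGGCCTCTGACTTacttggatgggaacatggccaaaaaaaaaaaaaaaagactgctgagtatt
Fabp1: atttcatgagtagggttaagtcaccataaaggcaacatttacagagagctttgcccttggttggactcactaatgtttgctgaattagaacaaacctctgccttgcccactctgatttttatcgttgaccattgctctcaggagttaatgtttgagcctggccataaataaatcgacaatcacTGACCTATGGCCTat
Plin2: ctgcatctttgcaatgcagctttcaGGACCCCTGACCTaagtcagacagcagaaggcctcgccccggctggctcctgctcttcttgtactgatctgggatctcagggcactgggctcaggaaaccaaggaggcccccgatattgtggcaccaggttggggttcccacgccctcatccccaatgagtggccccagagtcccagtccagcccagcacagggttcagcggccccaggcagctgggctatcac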

How the data were processed

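Bulk mRNA was sequenced from 10 obstructed kidneys, 5 given PBS and 5 given DMM, which the study's methods describe as independent replicates. The authors aligned reads to mm10, with HISAT2 2.0.5 per the submitters' processing notes. The counting tool, annotation release and strand setting are not given in the sources used here. The labels name TRIzol for RNA extraction, whereas the study's methods name a kit. The authors deposited raw counts per gene, used for every test. They also deposited FPKM, divided by gene length and an effective library size, used only to order levels between genes. The deposited signal columns, 1 mean per group of counts after division by size factors, were used only to find which libraries they weigh, by non-negative least squares (scipy 1.17.1). The gene length deposited by the authors is in base pairs. The deposited log2 fold changes and p-values of the authors' own comparison were not used. Per-sample columns left unused number 0.

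Genes were kept by filterByExpr, scaled by TMM and tested with edgeR 4.0.16 in R 4.3.3 (glmQLFit and glmQLFTest, group as the only term, Benjamini-Hochberg adjustment over all tested genes). A gene passed at an adjusted p under 0.05 with a fold change above 1.5, and a second rule used the unadjusted p. The steps were tested on simulated data. CPM are from the TMM factors of all 10 libraries, also where 8 are described, and log2 CPM for correlations had a prior count of 2. Alternatives were DESeq2 1.42.0, RLE factors, library size alone, other filters, fewer libraries and a replicate block. Gene lists for pathways and cell types were written from textbook knowledge. The members and lists were chosen with earlier results of these data known, and so was the set of 8 libraries.

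The named genes were the 9 members; the 3 genes of smallest p with a fold change above 1.5 over the 8 libraries in each pathway list; paralogs of members; the 2 tested genes most correlated with each member; the first and most abundant gene (by mean FPKM) of each marker list and those at 0 throughout; and textbook PPAR genes (Ppara, Ppard, Pparg, Cpt1a and Pdk4 among them). Some genes under this rule are not reported here. Other genes that passed in a count are named because the count was small, and Zcchc17 because it overlaps Fabp3. These were chosen after their values were seen. Promoter sequences are from RefSeq (GRCm38.p6), and exons from GENCODE. Counts of 0 and their limit of 3 counts cover counting error only.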

Additional observations from a re-analysis of the deposited data

Results flagged for a closer look

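Within each group of 5 libraries, the gap from the highest or lowest library to its neighbour was divided by the range of the group and set against Dixon's limit of 0.71. Of 58 groups of values tested, 15 had a library past the limit, where chance gives about 1 in 20. They are listed with no explanation, and many share a library, so they are not independent.

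PBS 3 was the high library in 7 of them. It had 249 CPM of Gk, where the other PBS libraries had 61.6 to 111, and 167 CPM of Cd36, where the others had 75.1 to 90.6. Its summed levels were 2096 CPM for fatty acid uptake and activation, 624 CPM for lipid droplets and triglyceride synthesis, 1051 CPM for ketone body metabolism, 758 CPM for glycerol use and 10355 CPM for proximal tubule genes. DMM 4 was set apart by Lpl at 809 CPM, where the other DMM libraries had 226 to 320.4, by a desaturation and fatty acid synthesis sum of 1667 CPM and by the lowest TMM factor, 0.852. DMM 1 was set apart by an interferon response sum of 2404 CPM, where the other DMM libraries had 243 to 337. The adipocyte sum was high in PBS 4 (87.0 CPM) and in DMM 5 (8.01 CPM), and the T cell sum in PBS 5 (84.3 CPM). Fabp1 in PBS 1, at 0.0529 CPM, is a single count beside 4 libraries at 0.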

How the results depend on the processing

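Over the 10 libraries, 0 genes and 0 members passed in either direction with RLE factors, library size alone, either other filter or no fold threshold. Genes passed as higher and lower with DESeq2 (14 and 36), the unadjusted rule (315 and 678) and the 8 libraries (452 and 590). Leaving out 1 library of the 10 gave 0 to 50 genes higher and 0 to 436 lower, above 0 only without DMM 1. Members passing as higher numbered 1 by the unadjusted rule, 3 over the 8 libraries and 0 to 1 with 1 library left out. Over the 8 libraries, alternatives chosen after seeing the data gave 749 genes higher and 911 lower with DESeq2, 276 higher with library size alone, and 1067 and 1198 by the unadjusted rule. Leaving out 1 of the 8 gave 131 to 1129 higher and 276 to 1281 lower. The highest counts came without DMM 4. Counts moved by over 1.5 times also without DMM 3 (186 and 308), DMM 5 (168 and 302), PBS 1 (225 and 367), PBS 2 (198 and 349), PBS 4 (160 and 317) or PBS 5 (131 and 276), but not without DMM 2 (377 and 572). Members passing as higher numbered 3 in these, and 4 without DMM 4. The cause of these shifts was not tested, beyond the smaller groups that leaving out libraries makes. A replicate block over the 10 libraries gave 0 genes either way (267 and 780 unadjusted). Over the 6 libraries whose numbers occur in both groups of the 8, the replicate block gave 0 genes and 0 members, and no replicate block gave 16 genes higher, 114 lower and 1 member. Of the 18 pathway genes, 0 passed in either fit. Replicates of the same number had deviations correlated at -0.06, 0.08, 0.34, 0.12 and -0.22, so the numbers were not taken as pairs. Only replicate 2 correlated best with its own number. The log2 fold changes of members moved by less than 1 SD between single libraries in 256 of 256 comparisons, a wide margin within which signs changed. Over the 8 libraries Angptl4 went from 0.13 to -0.41 with the replicate block and -0.26 in its 6 libraries without it, and to -0.06 without DMM 3 or PBS 1. Scd2 went from -0.01 to 0.24 with the block and 0.23 in the same 6 libraries without it, and Fabp3 from 1.31 to 0.73 and 1.23. Over the 10, Lpl, Angptl4, Scd2 and Plin2 changed sign when some single library was left out. Gk ranged from 0.70 to 1.32 and Scd1 from 0.76 to 1.20 with 1 of 10 libraries left out, Cd36 from 0.32 to 0.69, Lpl from -0.05 to 0.61 and Fabp3 from 0.39 to 1.08. With the replicate block over the 10, Fabp3 had 0.36. Fabp1 at 0 to 5 counts is limited by depth.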
